A study of Mus musculus with 48 samples.

Results

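Fmn2 loss was examined within 3-month-old mice of a cross between Fmn2 mutant and APPPS1-21 mice, in RNA from the dentate gyrus (DG), the granule cell layer region of the hippocampus. The members are all deposited libraries of that cross, 18 sequencing runs of 16 mice out of 48 samples in the whole series. They were split by the letter in the sample title into 7 W mice (8 runs) and 9 K mice (10 runs), and the 2 runs of W mouse 7 and of K mouse 7 were summed. All carry the strain label C57BL/6J and an age of 3 months, and all are labelled as carrying the amyloid transgenes (APP). The genotype field lists W mice as FMN2-/-_APP and K mice as FMN2 +/+ APP. The Fmn2 counts below go the other way, so the mice are called W and K throughout. For reference, 5 Fmn2+/+ and 5 Fmn2-/- mice of 3 months without the amyloid transgenes came from a separate experiment of the series. APPPS1-21 mice express mutant human APP and presenilin 1 from transgenes that the Thy1 promoter drives in neurons.

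Fmn2 encodes formin 2, an actin nucleator that builds unbranched actin filaments and works together with Spire proteins in oocytes and neurons. The gene is strongly expressed in the hippocampus and has been linked to memory in mice and humans. In amyloid-bearing brain, microglia around plaques switch on a set of lysosomal and lipid-handling genes, and astrocytes become reactive.

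The targeted gene was read first. Fmn2 (ENSMUSG00000028354, mm10 chromosome 1 from 174501825 to 174822729, protein-coding) had between 83.6 and 101.2 CPM (read counts scaled to a common library size) in W mice (median 93.3) and between 18.7 and 23.1 in K mice (median 20.2). The groups did not overlap, and the log2 fold change, given here and below as K minus W, was -2.15 with a standard error of 0.057 (edgeR's quasi-likelihood test, p adjusted by Benjamini-Hochberg 2.83e-14). In the separate experiment the gene had 93.2 to 112 CPM in Fmn2+/+ mice and 22.2 to 27.7 in Fmn2-/- mice. The 9 K mice thus had the level of Fmn2-/- mice and the 7 W mice that of Fmn2+/+ mice or slightly below it, against the genotype field. Every direction below is a difference of K mice from W mice, that is of the mice with little Fmn2 RNA from those with much.

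Before the comparison the libraries were checked against what else they should share. W mice held between 22079163 and 41715344 reads on genes (median 25332613) and K mice between 17756946 and 39403392 (median 25196013). Thy1, the gene whose promoter drives the transgenes, lay between 774 and 898 CPM in the 10 mice without transgene, and W mice 1 and 7 and K mouse 4 lay within that range at 774, 854 and 809, while the others ran from 936 to 1863. Xist, transcribed from the inactive X chromosome of females, was above 100 CPM in 4 W and 5 K mice and below 2 CPM in 3 W and 4 K mice, so both sexes are mixed in similar proportion in both groups. Ttr, the choroid plexus transthyretin, was at 8882, 5727 and 347 CPM in K mice 4, 5 and 7 and between 17.1 and 82.8 in all others of the cross. Lars2 was at 592 and 397 CPM in W mice 3 and 6 and at 116 or below in all other mice of the cross, and the thalamic marker Tcf7l2 was at 44.3 in W mouse 7 against 5.57 or below in the rest. The granule cell marker Prox1 was present in every mouse, from 184 to 369 CPM in W and from 211 to 329 in K mice.

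**Figure D1:**
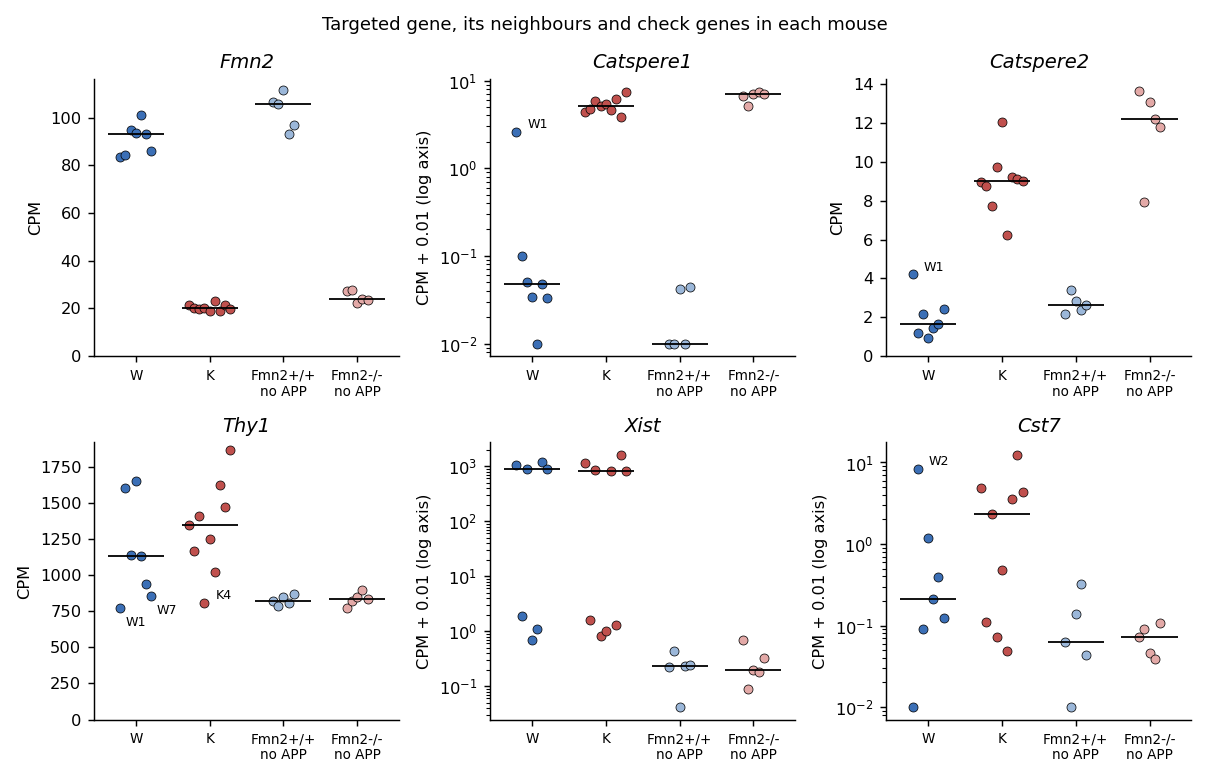
Level of Fmn2, its neighbours Catspere1 and Catspere2, and the check genes Thy1, Xist and Cst7 in each mouse, in CPM (log axes of CPM + 0.01 where stated). Each point is 1 mouse, lines are group medians, and W and K are the title letters of the cross; Fmn2 separates K from W as it separates Fmn2-/- from Fmn2+/+ mice without amyloid transgene, and W mouse 1 stands apart for Catspere1.

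Of 16656 genes tested between K and W mice, 240 (1.44%) were called, meaning that the adjusted p was under 0.05 and the log2 fold change 0.25 or more in size, of which 94 were higher (0.564%) and 146 lower (0.877%) in K mice. Before adjustment 2772 genes had a p under 0.05. DESeq2 called 637 genes, among them all 240. With a term for the Xist split 242 genes were called, 221 of them shared, and with the sequencing lane as a covariate 324. Without the 3 mice whose Thy1 lay in the range of mice without transgene there were 127, without the 3 mice with high Ttr 72, and without the 2 mice with high Lars2 109. Lanes 5 and 6 each hold 3 W and 3 K mice, and within them 11 and 16 genes were called. Of the 240 genes, 8 kept their call within lane 5 and 8 within lane 6.

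The largest differences that left no overlap between the groups were of mixed function. The CPM of 84 tested genes (0.504%) did not overlap between W and K mice, 55 lower (0.33%) and 29 higher (0.174%) in K, and 56 of these were also called and averaged at least 1 CPM in 1 group, 37 lower and 19 higher in K. Beside Fmn2, the named genes with the largest falls in K mice were Nuf2 (-2.02), Plin4 (-1.65), Mlph (-1.64), Atp6v0c (-1.39), Mettl11b (-1.22), Hif3a (-1.09), Rnps1 (-0.79), Mthfd2 (-0.75), Mertk (-0.64) and Smim3 (-0.57), all as log2 fold changes. The largest rises, leaving aside the pseudogene Catspere1 (3.54) and genes without a name, were Ctse (4.99), Catspere2 (2.15), Siglecf (1.80), Fam129a (1.10), Lgals3 (1.07), Sntg2 (0.87), Ube2t (0.79), Ddit4l (0.72), Ndnf (0.65), Il10rb (0.57), Dhdh (0.42) and N6amt1 (0.40). Dhdh lost its call without 5 of the 16 mice in turn and Il10rb without 1. Of the genes named here, Fmn2, Nuf2, Mlph, Mettl11b, Ctse, Catspere1, Catspere2, Fam129a and Ube2t lie on chromosome 1. Plin4, Atp6v0c and Rnps1 lie on chromosome 17. These chromosomes had the highest shares of called genes, as given below. For the genes on chromosome 1, an effect of the Fmn2 allele and of other sequence on that chromosome cannot be told apart.

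Mertk, a receptor tyrosine kinase with which microglia and astrocytes engulf dying cells and synapses, had between 46.6 and 63.03 CPM in W mice (median 56.8) and between 31.9 and 46.2 in K mice (median 33.3). Only the lowest W mouse, number 7, came near the highest K mice. The log2 fold change was -0.64 (standard error 0.084, adjusted p = 0.000828 in edgeR's test). Ctse, the aspartic protease cathepsin E, was at 0.204 CPM or below in all W mice and ran from 0.232 to 9.20 in K mice (median 1.72). Its rise (adjusted p = 0.00762, same test) was spread unevenly over K mice, with K mouse 8 highest and K mouse 2 just above the W range. Siglecf, a sialic acid receptor of myeloid cells, lay between 0.200 and 0.721 CPM in W and between 0.727 and 2.94 in K mice. The closest mice of the groups were thus nearly level. In mice without transgene Siglecf ran from 0.597 to 1.46 CPM in Fmn2-/- (median 1.29) and from 0.700 to 1.15 in Fmn2+/+ mice (median 0.842). Lgals3, the galectin 3 of phagocytes, ran from 0.285 to 1.17 CPM in W and from 1.27 to 2.59 in K mice. Without transgene it ran from 1.15 to 1.61 in Fmn2-/- (median 1.26) and from 1.11 to 1.73 in Fmn2+/+ mice (median 1.31). For Siglecf and Lgals3 the medians without transgene thus lay between those of W mice (0.478 and 0.978) and K mice (1.73 for each). Ctse was at 0.330 CPM or below in all mice without transgene, near the W mice.

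Called genes were most frequent on chromosomes 1 and 17. Chromosome 1, which carries Fmn2, held 42 called genes of 1041 tested (4.03%, 26 lower and 16 higher in K) and chromosome 17 held 29 of 760 (3.82%, 25 lower and 4 higher), against 169 of 14855 (1.14%) on all others. Chromosomes 16 and 15 followed with 2.83% and 2.41%. Within 10 Mb of Fmn2, 19 of 177 tested genes were called (10.7%). The called genes of chromosome 17 started between 6.955 and 57.02 Mb, and none of the 143 tested genes beyond was called. A cross of a mutant with another line moves the chromosome segment around the mutated gene together with it, so an effect of the Fmn2 allele and of neighbouring sequence cannot be told apart here.

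**Figure D2:**
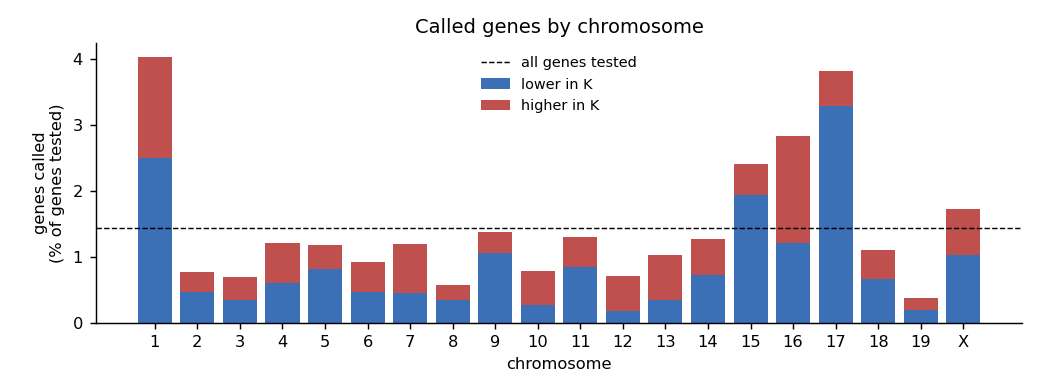
Share of tested genes that were called between K and W mice, in percent, on each chromosome, split into genes lower and higher in K. The dashed line is the share over all genes tested (1.44%); chromosomes 1 and 17 stand highest at 4.03% and 3.82%.

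**Figure D3:**
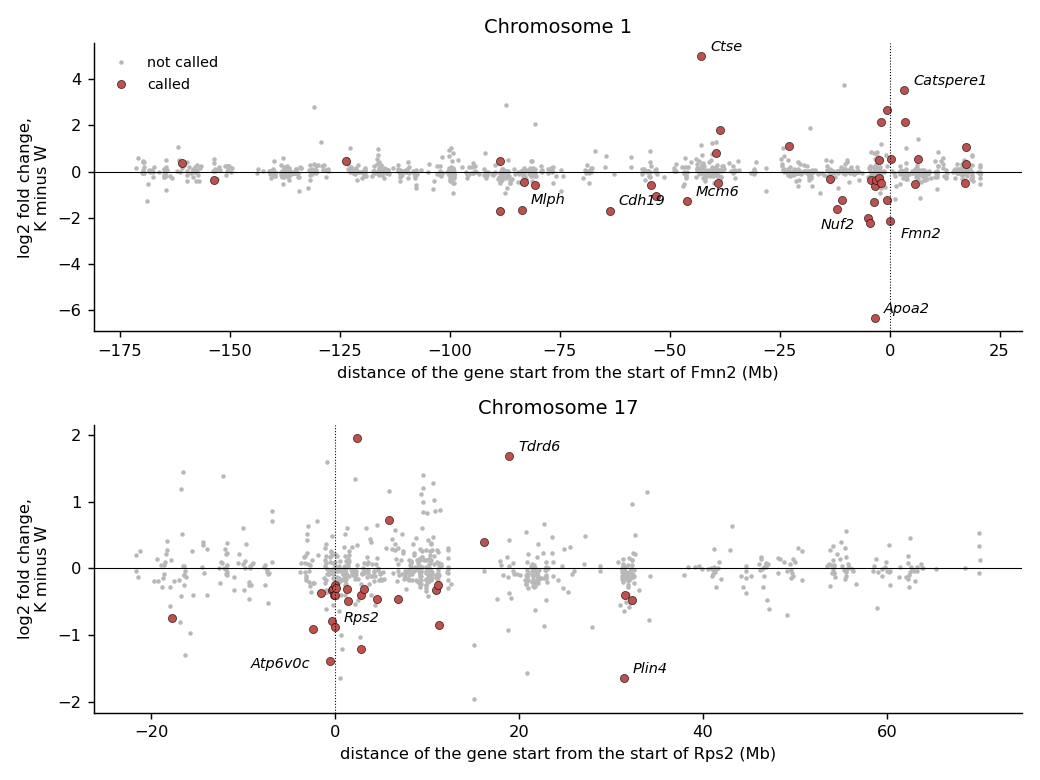
Log2 fold change, K minus W, of every tested gene on chromosomes 1 and 17 against the distance of its start from that of Fmn2 or Rps2 in Mb. Red points were called; on chromosome 1 they run along most of its length and are densest near Fmn2, and on chromosome 17 none lies in the last stretch.

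Next to Fmn2 the pair Catspere1 and Catspere2, relatives of a subunit of the sperm calcium channel, was higher in K mice. Catspere1 (chromosome 1 from 177808550 to 177962233, an unprocessed pseudogene in the annotation) was at 0.0901 CPM or below in 6 W mice, at 2.61 in W mouse 1, and between 3.88 and 7.48 in K mice. Catspere2 (from 177983423 to 178172704) lay between 0.933 and 4.20 CPM in W mice, with W mouse 1 again the highest, and between 6.25 and 12.02 in K mice. As related neighbours they may share reads in counting. Catspere2 rose by 2.15 (standard error 0.25, adjusted p = 0.000277, edgeR's test), and its log2 difference between Fmn2-/- and Fmn2+/+ mice without transgene was 2.12. In those Fmn2+/+ mice Catspere1 had 2 reads in all and in the Fmn2-/- mice 1076.

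Further called genes within 10 Mb of Fmn2 moved in both directions. Apoa2, an apolipoprotein of high-density lipoprotein, had 159 reads over the 7 W mice (12 to 48 in each) and 1 read over the 9 K mice, a ratio of read rates of 170 (95% exact interval 30.0 to 6745, counting error only). It had 1 read in the 5 Fmn2-/- mice and none in the 5 Fmn2+/+ mice without transgene, so W mice stood apart from every other group. Nuf2, a kinetochore protein, lay between 2.70 and 6.14 CPM in W mice and between 0.495 and 1.39 in K mice, and between 0.669 and 2.53 in the 10 mice without transgene. It fell by 2.02 in K mice (standard error 0.21, adjusted p = 9.78e-05, edgeR's test). Nit1, an amidase of the nitrilase family, ran from 43.9 to 50.7 CPM in W, from 32.9 to 39.2 in K and from 25.2 to 35.3 in the mice without transgene. Slamf8, a receptor of myeloid cells, was higher in K mice (log2 fold change 2.14, adjusted p = 0.0151), as was the epoxide hydrolase Ephx1 (0.54, adjusted p = 0.0256), while the interferon-inducible Mndal (-1.22, adjusted p = 0.0182), the kinase Itpkb (-0.54, adjusted p = 0.0158) and the coatomer subunit Copa (-0.28, adjusted p = 0.0206) were lower, all from the same test. Slamf8 was low throughout, at 0.0401 to 0.496 CPM in W and 0.509 to 1.36 in K mice. Its closest mice of the groups were nearly level, and the mice without transgene, at 0.146 to 0.558 CPM, overlapped both.

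On chromosome 17 W mouse 1 stood closer to K mice than the other W mice did. Of the 29 called genes there, 13 had a CPM in W mouse 1 within the range of K mice, 9 in W mouse 2 and at most 2 in each of the other W mice. Rps2, a protein of the small ribosomal subunit with many processed copies, was at 24.6 CPM in W mouse 1, between 49.5 and 60.9 in the other W mice and between 23.1 and 31.1 in K mice. Atp6v0c, the proton-conducting ring subunit of the vesicular ATPase, was at 10.5 CPM in W mouse 1, between 14.9 and 31.5 in the other W mice and between 7.20 and 10.2 in K mice. Both had low values in the mice without transgene, at 9.58 to 14.3 CPM for Rps2 and 6.84 to 15.5 for Atp6v0c. The log2 fold changes were -0.88 for Rps2 (standard error 0.13, adjusted p = 0.00206) and -1.39 for Atp6v0c (standard error 0.18, adjusted p = 0.000675), both from edgeR's test. Mcm6, a subunit of the replicative helicase on chromosome 1, showed the same order, with 10.1 CPM in W mouse 1, 22.6 to 52.1 in the other W mice and 10.8 to 19.6 in K mice. Without W mouse 1, 33 genes of chromosome 17, 39 of chromosome 1 and 192 of all genes were called.

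**Figure D4:**
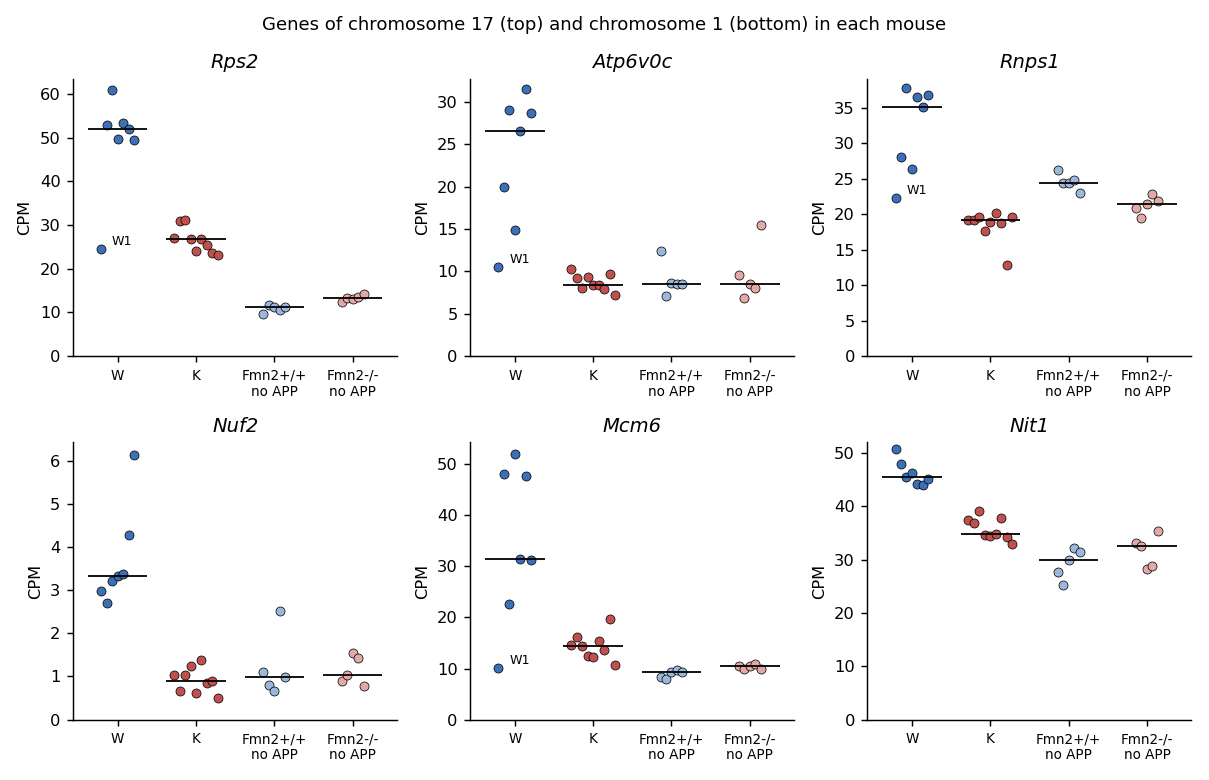
Level of 3 called genes of chromosome 17 (Rps2, Atp6v0c, Rnps1) and 3 of chromosome 1 (Nuf2, Mcm6, Nit1) in each mouse, in CPM. Points are mice and lines group medians; W mouse 1 is labelled where it lies at or near the K mice (Rps2 24.6, Atp6v0c 10.5, Rnps1 22.3 and Mcm6 10.1 CPM).

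Among lists of related genes, the amino acid and one-carbon stress genes gave 3 called members of 14 tested, all lower in K. This pathway is switched on by the transcription factor ATF4 when amino acids run short or the endoplasmic reticulum is stressed. The median log2 fold change of the list was -0.23, against -0.01 over all genes tested, and 12 of 14 members had a negative value. Over all genes tested 8614 of 16656 had a negative value, and 0.877% were called lower and 0.564% higher in K. These shares are the reference for every list below. The promoters of the 3 called members are shown from RefSeq (GRCm38.p6, 250 bases before to 50 after the gene start, 5′ to 3′ on the strand of the gene), since they moved together: Chac1 on chromosome 2 from 119350992 to 119351291, Mthfd2 on chromosome 6 from 83317555 to 83317854 and Atf4 on chromosome 15 from 80254934 to 80255233. Capitals mark matches, on either strand, to TGATGNAA, a sequence that ATF4 and its partners bind.
Chac1: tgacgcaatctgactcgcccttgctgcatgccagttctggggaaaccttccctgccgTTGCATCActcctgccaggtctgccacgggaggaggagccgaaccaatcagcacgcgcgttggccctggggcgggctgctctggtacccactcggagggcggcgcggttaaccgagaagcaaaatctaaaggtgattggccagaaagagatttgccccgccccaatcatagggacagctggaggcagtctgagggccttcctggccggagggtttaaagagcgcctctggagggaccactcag
Mthfd2: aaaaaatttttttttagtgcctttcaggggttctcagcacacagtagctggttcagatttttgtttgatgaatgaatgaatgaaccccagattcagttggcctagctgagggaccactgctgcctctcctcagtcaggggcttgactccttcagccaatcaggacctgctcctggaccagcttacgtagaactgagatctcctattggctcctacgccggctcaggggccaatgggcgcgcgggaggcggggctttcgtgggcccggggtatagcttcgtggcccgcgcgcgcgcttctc
Atf4: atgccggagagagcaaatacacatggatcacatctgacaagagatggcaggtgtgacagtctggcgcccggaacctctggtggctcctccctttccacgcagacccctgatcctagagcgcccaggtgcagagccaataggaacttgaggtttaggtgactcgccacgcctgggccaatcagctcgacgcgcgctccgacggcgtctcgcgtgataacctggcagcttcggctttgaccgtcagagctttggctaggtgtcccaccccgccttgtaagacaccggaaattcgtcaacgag
The match in Chac1 begins 193 bases before the gene start, and the windows of Mthfd2 and Atf4 hold none. A match was present in 4 of the 16 RefSeq promoters of 14 list members, and in 3.97% of all 32851 promoters. A match is a description of letters, not of binding.

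Mthfd2, the mitochondrial enzyme of one-carbon metabolism, ran from 7.81 to 13.2 CPM in W mice (median 8.79) and from 5.06 to 6.58 in K mice (median 5.65). All K mice were below all W mice, and the 10 mice without transgene, at 4.76 to 6.15 CPM, were below all W mice too. The fall, -0.75 as a log2 value with a standard error of 0.11 (adjusted p = 0.00206 in edgeR's test), kept its call without each single mouse. Chac1, which degrades glutathione, lay between 4.53 and 8.70 CPM in W and between 2.04 and 5.81 in K mice, with some overlap. Its fall (-0.72, adjusted p = 0.039) lost its call without 12 of the 16 mice in turn, and that of Atf4 itself (-0.43, adjusted p = 0.0233) without 1, both from the same test. Asns and Shmt2, an asparagine synthetase and a serine-to-glycine enzyme, had log2 fold changes of -0.22 and -0.23 that did not pass the test. Cars, the cysteinyl-tRNA synthetase, was not on the list and was lower in every K mouse, at 28.7 to 34.0 CPM against 39.6 to 48.1 in W mice (-0.44, standard error 0.050, adjusted p = 0.000234, edgeR's test).

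Over all genes tested 0.877% were called lower in K mice, and 8614 of 16656 had a negative log2 fold change. Of 20 oligodendrocyte and myelin genes 5 were called, all lower in K mice, and 18 had a negative log2 fold change (median -0.37). Among them were Hapln2, a link protein of the nodes (-0.70, adjusted p = 0.0274), Olig2, a lineage transcription factor (-0.56, adjusted p = 0.0347), the myelin proteolipid Mal (-0.56, adjusted p = 0.017) and the myelin regulator Myrf (-0.39, adjusted p = 0.0493), all from edgeR's test. Mal ran from 77.2 to 140 CPM in W mice and from 48.3 to 74.4 in K mice, and the values without transgene ran from 77.7 to 194. The calls of Myrf, Olig2 and Hapln2 were lost without 13, 11 and 4 of the 16 mice in turn. DESeq2 called 11 of the 20. The summed level of the list ran from 1987 to 3507 CPM in W and from 1485 to 2306 in K mice, the highest being W mouse 7, whose Tcf7l2 was also high. Without the mice with high Ttr 1 member was called, without the mice whose Thy1 lay in the range of mice without transgene 1 and without the mice with high Lars2 2, with medians of -0.43, -0.29 and -0.41. In bulk tissue fewer cells of a type and less RNA per cell cannot be told apart.

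Astrocyte markers gave 3 falls of 14 tested (median -0.12): Fam107a, an actin-binding protein of astrocytes (-0.62, adjusted p = 0.00214), the growth factor receptor Fgfr3 (-0.38, adjusted p = 0.0327) and the glycolytic aldolase Aldoc (-0.31, adjusted p = 0.0211), from edgeR's test. The call of Fgfr3 was lost without 8 of the 16 mice in turn, that of Aldoc without 1. Fam107a lay between 394 and 581 CPM in W mice and between 269 and 402 in K mice. Among 21 glucocorticoid and clock target genes (median -0.04) 3 were lower, Plin4, a lipid droplet coat protein (adjusted p = 0.00237), Hif3a, a hypoxia-inducible factor subunit (adjusted p = 0.019), and Tsc22d3, the glucocorticoid-induced leucine zipper (-0.64, adjusted p = 0.0386), while Fkbp5 had -0.23 and Sgk1 0.05 without passing the test. Leaving out each of 12 mice in turn ended the call of Tsc22d3. Plin4 ran from 6.90 to 15.4 CPM in W mice and from 1.73 to 6.17 in K mice. Of 16 endothelial and blood-brain barrier genes (median 0.08) 2 were lower, the lipid transporter Mfsd2a (-0.80, standard error 0.11, adjusted p = 0.0013) and the peptide hormone gene Apln (-0.61, adjusted p = 0.0151), and the structural markers Cldn5 and Cdh5 had 0.03 and 0.30 without passing the test. Mfsd2a lay between 37.1 and 59.7 CPM in W and between 24.05 and 38.0 in K mice, with a single K mouse reaching the W range. Mcm6, Nuf2 and Eomes, a transcription factor of neuronal progenitors, were the 3 called of 20 adult neurogenesis and cell cycle genes (median -0.10). Eomes lost its call without 11 of the 16 mice in turn, and the proliferation markers Mki67 and Top2a had -0.23 and -0.35 without passing the test.

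**Figure D5:**
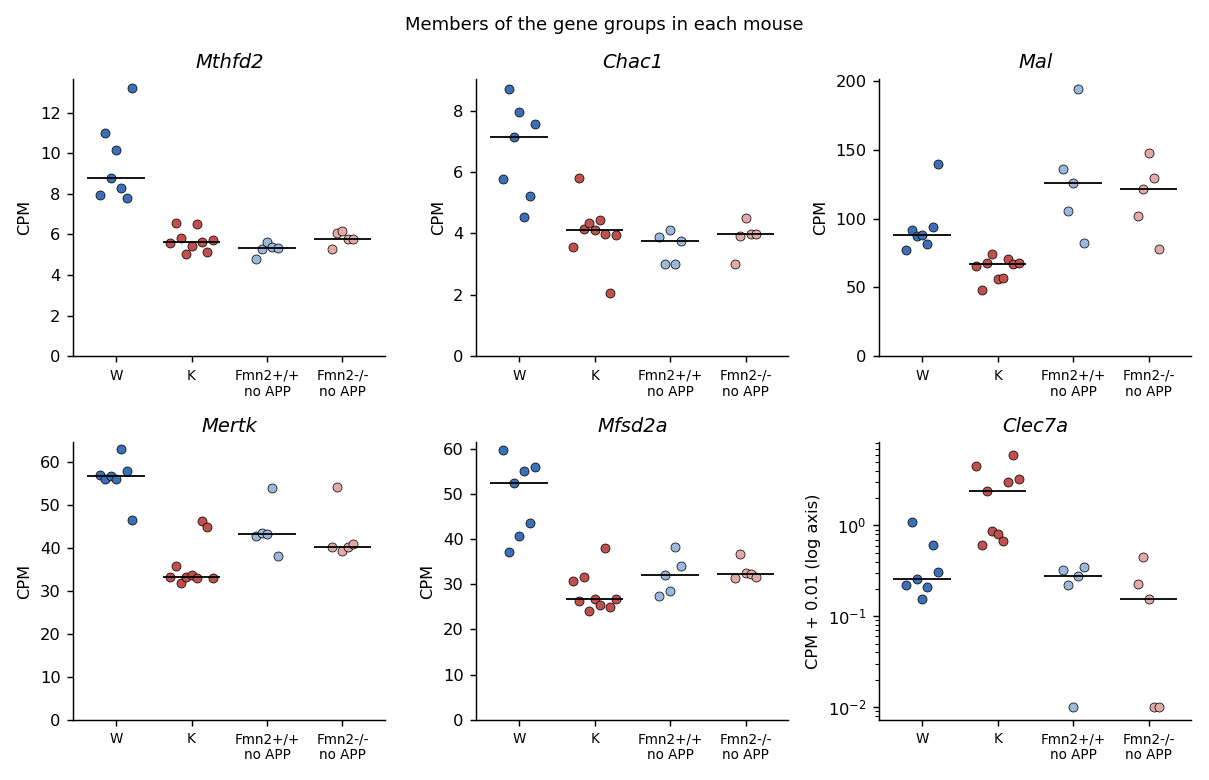
Level of Mthfd2, Chac1, Mal, Mertk, Mfsd2a and Clec7a in each mouse, in CPM (log axis of CPM + 0.01 for Clec7a). Points are mice and lines group medians; the W median is above the K median in the first 5 genes and below it for Clec7a, which is above 2 CPM in 5 K mice.

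Of 22 plaque-associated microglia genes tested, Clec7a alone was called (log2 fold change 2.68, standard error 0.57, adjusted p = 0.0267, edgeR's test). Of the 22, 20 had a positive value, against 8042 of the 16656 genes tested, and the median was 0.34. Clec7a, the beta-glucan receptor dectin 1, lay between 0.144 and 1.08 CPM in W mice and between 0.598 and 5.96 in K mice, and 5 K mice (1, 3, 7, 8 and 9) were above 2 CPM. The protease inhibitor Cst7 was above every mouse without transgene in 6 K and 3 W mice, at up to 12.4 CPM in K and 8.43 in W mice, and did not pass the test (adjusted p = 0.655). The 4 other K mice had Clec7a between 0.598 and 0.853 CPM. Both Xist classes are present in each group. K mice 1, 3, 8 and 9 had high Xist and K mouse 7 low Xist, and of the other K mice, 6 had high and 2, 4 and 5 low Xist. The log2 fold change of Clec7a was 2.57 with a term for the Xist split (adjusted p = 0.0346 in edgeR's test). It was 3.33 among mice with high Xist (adjusted p = 0.11) and 1.59 among mice with low Xist (adjusted p = 0.392), from the same test. Neither was called. The call of Clec7a was lost without 5 of the 16 mice in turn, and without the mice of low Thy1 or high Lars2, where its log2 fold change was 2.59 and 2.75. None of 17 reactive astrocyte genes (median 0.27) and none of 12 complement and Fc receptor genes (median 0.13) was called by edgeR, with 5 and 5 at an unadjusted p under 0.05 and 3 and 1 called by DESeq2.

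Few genes of energy metabolism or synapses passed the test. None of 37 complex I genes (median -0.03) and none of 38 genes of complexes II to V (-0.00) was called by edgeR, with 3 and 0 at an unadjusted p under 0.05 and none by DESeq2. Nor was any of 22 glutamate receptor subunits, 12 GABA-A receptor subunits or 22 synaptic vesicle and SNARE genes called by edgeR, with 5, 3 and 2 at an unadjusted p under 0.05 and 2, 0 and 0 called by DESeq2. Among 79 cytosolic ribosomal proteins Rps2 and Rpl28 were called, Rpl28 not without 13 of the 16 mice in turn, and the median was -0.01. Of 24 actin nucleators and partners of Fmn2 edgeR called Fmn2 itself and no other, with 7 at an unadjusted p under 0.05 and 2 called by DESeq2. Of 17 V-type ATPase subunits Atp6v0c was called, with 4 at an unadjusted p under 0.05 and 1 called by DESeq2. Choroid plexus and ependymal markers had a median of 2.26 with none of 14 called by edgeR, 10 at an unadjusted p under 0.05 and 1 by DESeq2, and their summed level reached 12831 CPM in K mice against 234 in W mice. Of 14 dentate granule cell markers (median -0.04) C1ql2 was lower (-0.59, adjusted p = 0.0426), and its call was lost without 12 of the 16 mice in turn.

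The 3 genes that the study followed in mice of this cross were lower in K mice, and since it chose them on such mice their direction is not independent evidence. Cdh19, a cadherin of glia, lay between 3.41 and 15.4 CPM in W mice and between 1.16 and 5.36 in K mice (-1.70, standard error 0.29, adjusted p = 0.0067, edgeR's test). W mouse 1 alone lay among K mice. Htr5b, a serotonin receptor, lay between 0.987 and 2.87 CPM in W and between 0.579 and 1.45 in K mice (-1.06, adjusted p = 0.0361, lost without 11 of the 16 mice in turn), and the calcium channel subunit Cacng6 had a log2 fold change of -0.62 that did not pass the test (adjusted p = 0.125, same test). Cdh19 and Htr5b lie on chromosome 1, as Fmn2 does, and Cacng6 lies on chromosome 7. For Cdh19 and Htr5b, an effect of the Fmn2 allele and of other sequence on chromosome 1 cannot be told apart.

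Whether K minus W differed from Fmn2-/- minus Fmn2+/+ without amyloid transgene was tested as an interaction over 26 mice. Of 17599 genes tested, 47 were called (0.267%), 40 of them with a more negative difference in the cross (0.227%) and 7 with a more positive one (0.0398%), and 33 of the 47 were also called between K and W. Fmn2 itself had a difference of -0.10 (adjusted p = 0.668). Rps2 had the difference -1.17, Gtf2h4, a subunit of transcription factor TFIIH, -0.58, and Cars -0.52 (adjusted p = 0.00516 for each, edgeR's test). Mthfd2 followed with -0.88 and the adhesion protein Kirrel2 with -1.83 (both adjusted p = 0.0124). In the other direction Fam129a had 1.19 (adjusted p = 0.04), the syntrophin Sntg2 0.99 (adjusted p = 0.0457), and Tdrd6, a germ-cell Tudor protein, 2.00, Pstpip2 0.90 and Lactb2 0.60 (adjusted p = 0.0469 each). Rps2, Gtf2h4 and Tdrd6 lie on chromosome 17 and Fam129a and Lactb2 on chromosome 1, where called genes between K and W were most frequent. The other named interaction genes lie on other chromosomes. For Mthfd2 the levels without transgene were 4.76 to 5.60 CPM in Fmn2+/+ and 5.30 to 6.15 in Fmn2-/- mice, and all 7 W mice lay above this range. The 2 experiments were not sequenced as 1 design, and the cross mixes sexes while the 10 other mice all had low Xist. All Fmn2+/+ mice without transgene were sequenced in lane 5, and all Fmn2-/- mice but mouse 1 in lane 6. Lanes 5 and 6 each hold both W and K mice of the cross. No lane term was fitted for the interaction, so differences of lane are not separated from those of genotype in the mice without transgene. DESeq2 called 249 genes, edgeR without a filter on low counts 15 and with a term for the Xist split 39. With a block for the replicate number, which keeps only same-numbered mice, 0 were called. With each mouse left out in turn 9 to 72 were called. Of the 240 genes called between K and W, 151 (62.9%) had a mean in the 10 mice without transgene that was nearer to K mice, against 53.7% of all genes tested.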

How the data were processed

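Total RNA was isolated with TRIZOL, libraries were made with the TruSeq v2 kit, and the authors used STAR for alignment to mm10 and HTSeq for counting. Raw read counts per gene were deposited, and the strand setting of the counting is not given in the sources used here. Runs of 1 mouse were summed (chi-square divided by its degrees of freedom was 2.15 and 1.72, and 7.86 to 84.5 between different mice of a group). Nothing in the labels ties mice to litters, and the p-values measure the spread between these mice. The mouse numbers in the titles ran from 319 to 656 in W and from 686 to 767 in K mice, so the groups do not interleave. Whatever goes with these numbers cannot be told apart from the difference between W and K, and what they stand for is not given. CPM are scaled by TMM over all 26 mice.

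Genes were named from GENCODE M21 (48349 of 48709). Comparisons were made with the quasi-likelihood test of edgeR (edgeR 4.0.16, limma 3.58.1, R 4.3.3) with TMM and filterByExpr, Benjamini-Hochberg adjustment over all genes tested, and a call needed an adjusted p under 0.05 and a log2 fold change of 0.25 or more in size. DESeq2 1.42.0 was an alternative. K and W mice were fitted alone, and the interaction over 4 groups. The scripts were tested on simulated data. Depth limits mainly genes of low CPM, and intervals cover counting error only.

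The members, lists and tests were chosen with earlier results of these data known. Named were Fmn2, the Catspere pair, the 12 largest falls and 12 largest rises among called genes without overlap and at least 1 CPM in a group, called genes within 10 Mb of Fmn2 (at most 10), at most 5 called members per list and direction, at most 5 interaction genes per direction, and 3 genes the study followed. Cars is named by the interaction, and unnamed symbols were counted only. Alternatives were other normalization, filters, fold minima, lane, replicate block, length and GC correction, single lanes and each mouse left out. A term for sex by Xist, and fits by Xist or without mice of unusual Thy1, Ttr or Lars2, were chosen after seeing the data. The 8 samples of 8 months and the 12 titled PFC were not used here. Some genes that the rule selects are not reported here.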

Additional observations from a re-analysis of the deposited data

Results flagged for a closer look

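Over 248 combinations of a named gene and a group, 21 had 1 mouse far from the others by Dixon's test. Chance flags about 1 in 20 where values are normally distributed, which CPM near 0 are not. The Apoa2 flags of K mouse 3 and Fmn2-/- mouse 4 each rest on 1 read, with no read in the other mice of the group. W mouse 1 stood apart with Catspere1 at 2.61 CPM (next highest 0.0901), Rps2 at 24.6 (next 49.5) and Tdrd6 at 1.67 (next 0.766). W mouse 7 stood apart with Mal at 140, Mertk at 46.6 and Ndnf at 12.7 CPM, and W mouse 4 with Apoa2 at 1.15. Among K mice these were Apoa2 at 0.0409 in mouse 3, Cdh24 at 10.7 in mouse 6, Mlph at 1.39 in mouse 7, Copa at 247, Rnps1 at 12.9 and Slamf8 at 1.36 in mouse 8, and Myoc at 17.6 in mouse 9. Without amyloid transgene, Fmn2-/- mouse 2 had Apln at 27.7, Mertk at 54.1, Mfsd2a at 36.7 and Pstpip2 at 8.04, Fmn2-/- mouse 1 had Mlph at 0.743, Fmn2-/- mouse 4 had Apoa2 at 0.0366, and Fmn2+/+ mouse 4 had Nuf2 at 2.53 CPM.

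The K minus W difference departed from the Fmn2-/- minus Fmn2+/+ difference by -1.17 for Rps2, -0.52 for Cars, -0.58 for Gtf2h4, -0.88 for Mthfd2, -1.83 for Kirrel2, 1.19 for Fam129a, 0.99 for Sntg2, 0.60 for Lactb2, 2.00 for Tdrd6 and 0.90 for Pstpip2 on the log2 scale, each by the interaction test over 26 mice. What sets these apart was not tested.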

How the results depend on the processing

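The number of genes called between K and W moved more than 1.5 times from 240 under DESeq2 (637), within lane 5 (11) and lane 6 (16), among mice with high Xist (8) or low Xist (15), without mice of low Thy1 (127), high Ttr (72) or high Lars2 (109), and at a fold minimum of 0.5 (129). The smaller fits hold fewer mice, and for the others the cause was not tested. With each mouse left out in turn it ran from 116 to 330, and it was under 160 without K mouse 1 (116), 2 (139), 3 (154), 4 (150), 5 (152) or W mouse 5 (140). It stayed within 1.5 times with RLE normalization (244), no filter (178), lane (324), length and GC correction (335), the lane 7 run alone (254) and no fold minimum (261). Same-numbered W and K mice shared a lane and carry adjacent S numbers in their titles. Of these 7 pairs 3 correlated above 0.1 (from -0.29 to 0.27). The mean correlation was 0.07, against -0.01 for mice of different numbers, so whether the numbers pair the mice is not settled. With the replicate block on 7 pairs 241 genes were called, and 336 on the same mice without it. With the block and the length and GC correction it was 272.

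For the interaction, 47 genes were called, against 249 under DESeq2, 15 with no filter and 0 with the replicate block, also with the length and GC correction (0), with 1571 and 1654 at an unadjusted p under 0.05. Left-out mice gave 9 to 72: K mouse 1 (26), 2 (28), 4 (26) and 5 (23), W mouse 2 (72) and 7 (30), Fmn2-/- mouse 2 (19), 5 (30) and 6 (24), and Fmn2+/+ mouse 1 (15), 2 (9), 3 (16), 4 (28) and 5 (18) moved it more than 1.5 times.

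Over the named genes and alternatives, 1548 fold changes stayed on their side of the thresholds, 559 lost the call and none changed sign.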

Other observations

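In each of the remaining gene lists edgeR called at most 1 member. Lower in K mice were Mertk among 12 homeostatic microglia genes (median 0.04), Mndal among 19 interferon and MHC class I genes (0.03), Cacna1i among 22 calcium channel subunits (-0.10), Hist1h2be among 12 histone genes (-0.15), Cdh24 among 12 CA1 and CA3 markers (-0.00), Olig2 among 10 oligodendrocyte precursor markers (-0.22), Myoc among 13 meningeal markers (0.71) and Htr5b among 10 thalamus and habenula markers (-0.30). DESeq2 called 2, 2, 1, 4, 1, 2, 2 and 1 members of these lists in that order. The calls of Cacna1i, Cdh24, Olig2 and Htr5b were lost without 12, 13, 11 and 11 of the 16 mice in turn. Those of Mertk, Mndal, Hist1h2be and Myoc were kept without each single mouse.

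None was called by edgeR or DESeq2 among 13 amyloid and transgene genes (2 with an unadjusted p under 0.05), 8 mitochondrially encoded genes (2), 19 cholesterol synthesis genes (3), 20 immediate early genes (2), 10 dorsal against ventral hippocampus markers (1), 13 interneuron markers (1), 10 pericyte markers (4) and 5 blood cell markers (3). Their median log2 fold changes were 0.02, 0.11, 0.14, 0.12, 0.10, -0.08, 0.27 and -0.56 in that order.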
